A study of Homo sapiens with 8 samples.

Results

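Cholesterol and fatty acid synthesis was followed through 32 genes, listed by name, that cover the enzymes of both pathways, the sterol sensing machinery that sets their transcription, a sterol carrier and a sterol exporter. Of these, 27 were measured among 8961 genes measured in all, which means that a probe set annotated with that gene alone reached a signal of 500 on at least 1 of 8 arrays. MVD and FADS2 stayed under 500 on all 8 arrays, CYP51A1 and FADS1 had only probe sets annotated with several genes, and FDFT1 was not analysed here. The study asked what loss of IGF2R, the receptor that carries newly made lysosomal enzymes to lysosomes, does to cervical cancer cells. BOKU and SKG-I, 2 established cervical cancer cell lines grown in serum-containing medium, received IGF2R siRNA (siIGF2R) or control siRNA (siCtrl) by lipofection, and RNA was taken 72 h later. Each line and siRNA gave 1 RNA sample that was put on 2 Affymetrix U133 Plus 2.0 arrays. The study describes the duplicates as the same RNA, although the series record can also be read as separate sets of cells. They were counted as the same RNA, so the 2 lines were the replicates of the knockdown. Each test measures the spread of these 4 RNA samples only, and the number of RNA samples limits the precision. The sequence of the siRNA used for the arrays was not given in the sources used here. Both lines received siRNA under the same label, siIGF2R. Loss of IGF2R and any other effect of that siRNA therefore cannot be told apart.

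Cells build cholesterol from acetyl-CoA through mevalonate, isoprenoids and squalene, and fatty acids from the same precursor through malonyl-CoA. When sterols in the endoplasmic reticulum run low, SCAP escorts the SREBP transcription factors to the Golgi, where they are cut and released to switch on the synthesis genes, and INSIG proteins hold SCAP back when sterols are plentiful. INSIG1 is itself a SREBP target, while ABCA1 and SREBF1 are induced by LXR receptors when oxysterols rise.

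IGF2R itself had signals of 641 and 645 on the BOKU siIGF2R arrays, against 7288 and 6710 on the BOKU siCtrl arrays. In SKG-I it had 257 and 295 with siIGF2R and 4120 and 3838 with siCtrl. The drop over both lines was -3.65 ± 0.21 on the log2 scale (SE, n = 2 lines, limma adjusted p = 0.0221). Among the epithelial markers, KRT8, KRT18 and KRT19 were measured in both lines, KRT5 reached at most 45.9, and in BOKU EPCAM stayed at or under 50.8 and CDH1 at or under 3.1. KRT19 had signals of 1968 and 1939 on the SKG-I siIGF2R arrays, against 7024 and 7222 on the SKG-I siCtrl arrays, and CDH1 went the other way there, with 619 and 652 on the siIGF2R arrays against 143 and 173 on the siCtrl arrays. The summed signal of the 6 epithelial markers with a probe set was 31394 to 36690 in BOKU siIGF2R and 41592 to 43765 in BOKU siCtrl, and 28283 to 28926 in SKG-I siIGF2R and 37331 to 37731 in SKG-I siCtrl. Of 7 fibroblast markers COL1A1 and COL3A1 were measured, and none of the leukocyte or endothelial markers was. COL3A1 reached at most 27.8 in BOKU. The summed fibroblast signal was 1452 to 1769 in BOKU siIGF2R and 1580 to 1634 in BOKU siCtrl. In SKG-I the sum was 6012 to 6263 with siIGF2R and 8020 to 8057 with siCtrl. The part of these markers in the changes below was not tested. In such bulk RNA, fewer cells of a kind and less RNA per cell cannot be told apart.

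HMGCS1 and INSIG1 fell after IGF2R knockdown in both lines, and they were the only members of the 27 that passed the test. HMGCS1 encodes the HMG-CoA synthase of the mevalonate pathway. Its signals were 1189 and 832 in BOKU siIGF2R, against 2848 and 2375 in BOKU siCtrl. In SKG-I they were 665 and 622 with siIGF2R and 1956 and 1865 with siCtrl. The highest siIGF2R array lay well below the lowest siCtrl array in each line. The level was 2.61 times lower in BOKU and 2.97 times lower in SKG-I, a change over both lines of -1.48 ± 0.20 on the log2 scale (SE, n = 2 lines, limma adjusted p = 0.0286).

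INSIG1, the sterol-dependent retention factor of SCAP, had signals of 2248 and 1921 in BOKU siIGF2R, against 4801 and 4542 in BOKU siCtrl. In SKG-I its signals were 1545 and 1572 with siIGF2R and 6400 and 6074 with siCtrl. The groups did not overlap in either line. After knockdown the level was 0.445 of the siCtrl level in BOKU and 0.250 of it in SKG-I (log2 -1.58 ± 0.24 over both lines, SE, n = 2 lines, limma adjusted p = 0.0340). The 2 other probe sets of INSIG1 fell as well, with log2 changes of -1.54 and -1.63 in BOKU and -2.13 and -2.49 in SKG-I (limma adjusted p = 0.0245 and 0.0292). The other probe set of HMGCS1 changed by -0.48 in BOKU and -1.08 in SKG-I and did not pass (limma adjusted p = 0.145).

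Among all genes measured, 2.37% were called lower and 2.63% higher after knockdown, against 2 of 27 members (7.41%) lower and 0 higher. Without adjustment, 6 members were lower and 2 higher in limma at p under 0.05, where 14% of all genes were lower and 14.4% higher. HMGCS1 and INSIG1 also were the 2 members that dropped at least 2-fold in BOKU and in SKG-I alike, as 2.34% of all genes did, and 0 members gained 2-fold in both, as 3.18% of all genes did. Both calls rested on the way limma pools the spread: without a trend of the spread with signal, the adjusted p was 0.102 for HMGCS1 and 0.115 for INSIG1, and no gene of the 8961 passed, while 2078 of them, 5 members among these, had an unadjusted p under 0.05. When all probe sets of a gene were averaged in place of taking the brightest, the adjusted p of HMGCS1 was 0.0679. With the 8 arrays taken as separate samples, which counts each RNA 2 times, 9 members were called lower and 4 higher, where 24.8% of all genes were lower and 25.8% higher.

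**Figure D1:**
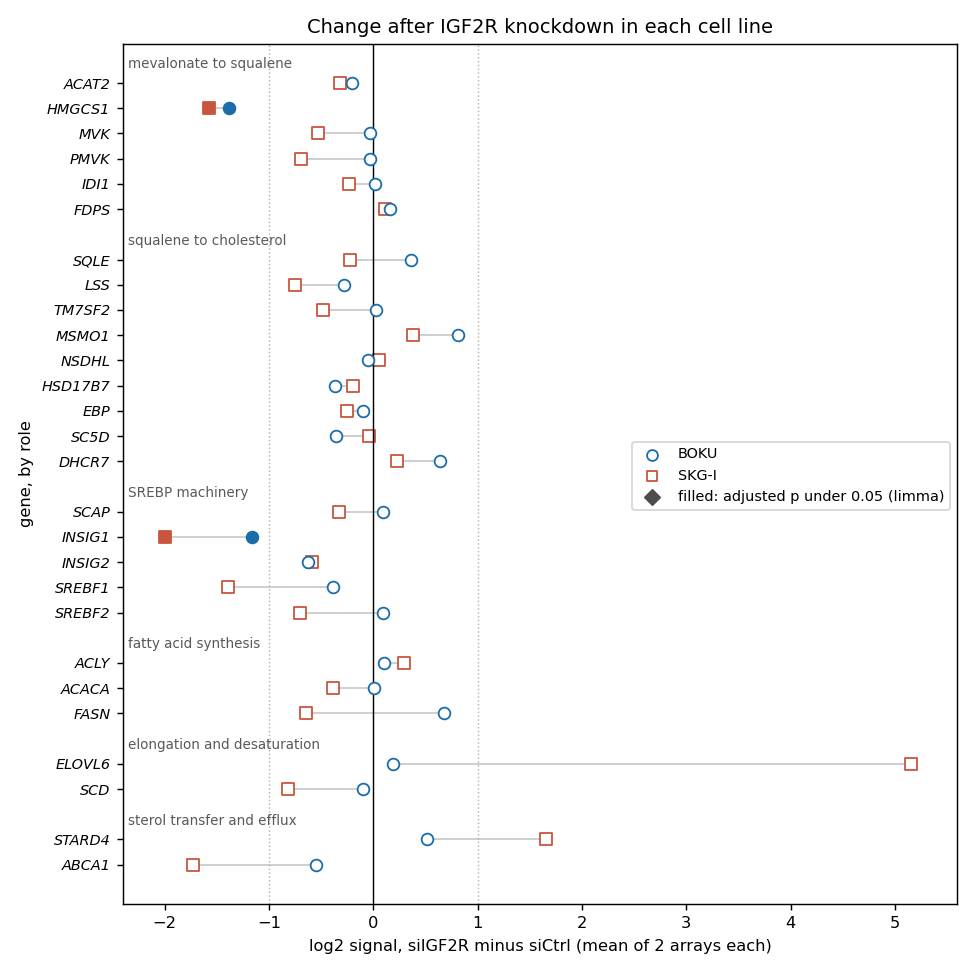
Change of each measured member in log2 signal, siIGF2R minus siCtrl, by role, with circles for BOKU and squares for SKG-I; filled symbols passed the limma test over both lines at an adjusted p under 0.05 and dotted lines mark 2-fold. HMGCS1 and INSIG1 lie past the 2-fold line on the low side in both lines, and ABCA1 and SREBF1 in SKG-I. STARD4 lies past it on the high side in SKG-I, at 1.65, and ELOVL6 at 5.16 in SKG-I rests on signals of 59 and less.

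The promoters of both genes that passed, and of ABCA1 and STARD4, which beside them and the dim ELOVL6 had the largest SKG-I changes, are shown for the letters they hold. They are the 250 bases before the first-listed transcription start in RefSeq (build GRCh38.p14), written 5′ to 3′ on the gene's strand. Windows were found for 28 of the 32 members, and not for ACAT2, FDFT1, SQLE and FASN. Capitals mark the E-box CACGTG (in INSIG1 within its longer palindrome TCACGTGA) and the CCAAT box, which reads ATTGG on the opposite strand. The stretches are chr7:155297628-155297877 for INSIG1 (plus strand), chr5:43313413-43313662 for HMGCS1 (minus strand), chr9:104928156-104928405 for ABCA1 (minus strand) and chr5:111512536-111512785 for STARD4 (minus strand).
INSIG1: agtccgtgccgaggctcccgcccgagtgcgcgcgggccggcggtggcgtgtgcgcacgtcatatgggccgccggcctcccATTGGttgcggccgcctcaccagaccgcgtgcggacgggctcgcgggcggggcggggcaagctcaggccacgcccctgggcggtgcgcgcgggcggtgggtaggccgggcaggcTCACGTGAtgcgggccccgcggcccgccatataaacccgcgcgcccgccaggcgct
HMGCS1: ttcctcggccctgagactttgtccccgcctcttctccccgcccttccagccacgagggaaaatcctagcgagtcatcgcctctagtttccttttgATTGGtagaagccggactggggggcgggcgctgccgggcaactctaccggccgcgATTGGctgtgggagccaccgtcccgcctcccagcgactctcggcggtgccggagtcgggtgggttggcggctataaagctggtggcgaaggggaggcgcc
ABCA1: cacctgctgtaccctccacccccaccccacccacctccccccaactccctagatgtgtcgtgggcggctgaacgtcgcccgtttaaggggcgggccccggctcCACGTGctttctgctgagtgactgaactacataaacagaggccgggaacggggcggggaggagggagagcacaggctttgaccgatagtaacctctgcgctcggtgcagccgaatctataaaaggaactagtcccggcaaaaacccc
STARD4: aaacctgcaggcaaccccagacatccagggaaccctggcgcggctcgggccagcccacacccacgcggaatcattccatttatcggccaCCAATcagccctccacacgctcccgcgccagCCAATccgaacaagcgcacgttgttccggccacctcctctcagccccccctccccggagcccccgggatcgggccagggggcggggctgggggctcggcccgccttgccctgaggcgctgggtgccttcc
INSIG1 holds the palindrome 56 bases before its start and a CCAAT box 170 bases before it. HMGCS1 holds CCAAT boxes 155 and 100 bases before its start and STARD4 holds them 161 and 130 bases before, while ABCA1 has an E-box 147 bases before its start. Both strands were searched in the 250 bases before every listed start, and a gene counted once if any of its windows matched. TCACGTGA was before 1.04% of the 27305 genes and before INSIG1 alone among the members, and CACGTG, which it contains, was before 7.73% of genes and 4 of 28 members (SC5D, SCAP, INSIG1 and ABCA1). CCAAT was before 37% of genes and 19 of 28 members, and the GC box GGGCGG before 46.2% of genes and 27 of 28 members. RefSeq windows include genes that code for no protein, and a match says only that the letters are present.

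In the first stretch of the pathway, up to squalene, 6 of 8 listed genes were measured and HMGCS1 alone passed the test. The median change of the 6 was -0.03 in BOKU and -0.42 in SKG-I. In SKG-I the siIGF2R arrays lay below the siCtrl arrays for 5 of the 6, where 43.6% of all genes did, and in BOKU for 2, where 35.8% did. ACAT2, the thiolase that joins acetyl-CoA units, changed by -0.21 in BOKU and -0.32 in SKG-I (limma adjusted p = 0.400). The mevalonate kinases MVK and PMVK had changes of -0.03 each in BOKU and -0.53 and -0.70 in SKG-I (limma adjusted p = 0.468 and 0.375). IDI1, the isomerase that makes dimethylallyl pyrophosphate, changed by 0.01 in BOKU and -0.23 in SKG-I (limma adjusted p = 0.721). FDPS, the farnesyl pyrophosphate synthase, was the exception in direction, with changes of 0.16 in BOKU and 0.12 in SKG-I (limma adjusted p = 0.583).

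From squalene to cholesterol, 9 of 10 listed genes were measured and none was called in either direction, and 1 was higher and 1 lower at p under 0.05 before adjustment, close to the 14.4% and 14% of all genes. MSMO1, the sterol methyl oxidase, had the largest change over both lines in this stretch. Its signals were 9469 and 8276 in BOKU siIGF2R, against 5244 and 4842 in BOKU siCtrl. In SKG-I they were 12862 and 12210 with siIGF2R and 9656 and 9602 with siCtrl. The groups did not overlap in either line, and the change over both was 0.60 ± 0.16 on the log2 scale (SE, n = 2 lines, limma adjusted p = 0.0902). DHCR7, the reductase of the last step, moved the same way, by 0.64 in BOKU and 0.22 in SKG-I (limma adjusted p = 0.235).

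The lanosterol synthase LSS lay on the other side, with changes of -0.28 in BOKU and -0.75 in SKG-I (limma adjusted p = 0.179). HSD17B7, a ketoreductase of sterol demethylation, changed by -0.37 in BOKU and -0.19 in SKG-I, and SC5D, the sterol desaturase, by -0.36 in BOKU and -0.04 in SKG-I (limma adjusted p = 0.393 and 0.538). The sterol reductase TM7SF2, the dehydrogenase NSDHL and the isomerase EBP had changes between -0.49 and 0.05 in the lines, with adjusted p of 0.739, 0.996 and 0.542 in limma.

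SQLE, the squalene epoxidase, had signals of 5942 and 5912 in BOKU siIGF2R, against 4471 and 4752 in BOKU siCtrl. Its SKG-I signals were 13305 and 12733 with siIGF2R and 15578 and 14760 with siCtrl. The siIGF2R arrays were all above their controls in BOKU and all below them in SKG-I, so that its change was 0.36 in BOKU and -0.22 in SKG-I. Its 2 further probe sets split the same way, at 0.45 and 0.38 in BOKU and -0.36 and -0.12 in SKG-I. Over all genes measured, 13.3% had arrays that lay apart in opposite directions in this way, and among the members SQLE and FASN did (7.41%).

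**Figure D2:**
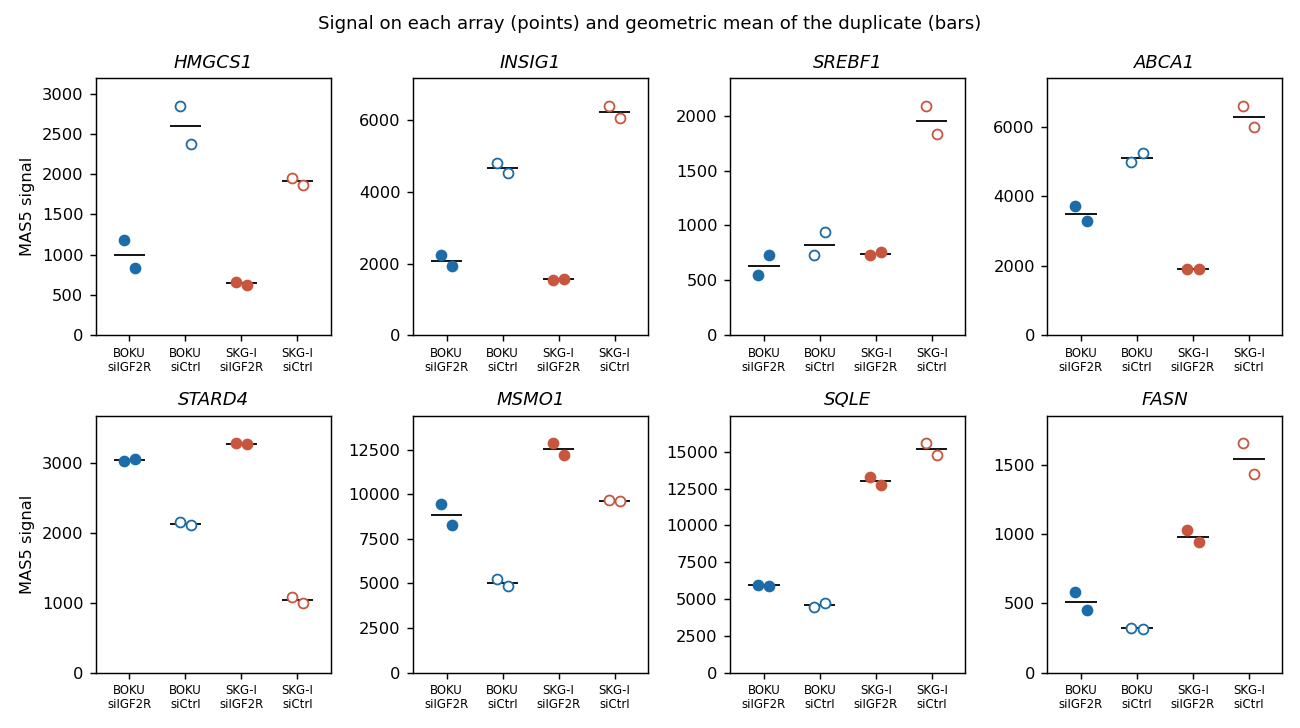
MAS5 signal of 8 members on each array (points, linear axis from 0), with the geometric mean of each duplicate (bars), for siIGF2R (filled) and siCtrl (open) in BOKU and SKG-I. The siIGF2R points lie below the siCtrl points in both lines for HMGCS1, INSIG1 and ABCA1 and above them for STARD4 and MSMO1, whereas SQLE and FASN lie above in BOKU and below in SKG-I.

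All 5 genes of the SREBP machinery were measured, and all 5 had siIGF2R arrays below the siCtrl arrays in SKG-I, where 43.6% of all genes did, with a median change of -0.70. In BOKU 3 of the 5 did, where 35.8% of all genes did, with a median of -0.39. INSIG1 was the only one called. The SREBF2 probe set reached 500 on the SKG-I siCtrl arrays alone, so its place in the SKG-I count was favoured by the filter. The SKG-I median is its own change. INSIG2, the second retention factor, had signals of 813 and 810 in BOKU siIGF2R and 1261 and 1251 in BOKU siCtrl. In SKG-I it stayed under 500, at 232 and 264 with siIGF2R and 380 and 363 with siCtrl. The arrays were apart in both lines, by -0.63 in BOKU and -0.58 in SKG-I, yet the change did not pass (-0.61 ± 0.23 over both, SE, n = 2 lines, limma adjusted p = 0.168).

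SREBF1, which encodes the SREBP that drives fatty acid genes, had signals of 548 and 727 in BOKU siIGF2R, against 727 and 937 in BOKU siCtrl. Its SKG-I signals were 727 and 758 with siIGF2R and 2089 and 1831 with siCtrl. In BOKU the higher siIGF2R array lay below the lower siCtrl array by less than 1 unit of signal, while the SKG-I groups lay far apart, with a level 2.64 times lower after knockdown. Over both lines the change was -0.89 ± 0.29 (SE, n = 2 lines, limma adjusted p = 0.129).

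SREBF2 encodes the SREBP that drives cholesterol genes. Its signals were 390 and 420 in BOKU siIGF2R, against 340 and 423 in BOKU siCtrl. In SKG-I they were 419 and 439 with siIGF2R and 795 and 609 with siCtrl. The BOKU arrays overlapped and the SKG-I arrays did not (changes of 0.09 and -0.70, limma adjusted p = 0.549). A second probe set of SREBF2 had changes of 0.58 in BOKU and 0.01 in SKG-I, so its probe sets disagree. The 59 bases of its promoter at chr22:41832947-41833005 (plus strand) are shown because SREBF2 was the only one of the 28 members to match the sterol regulatory element searched, TCACNCCAC, which 1.09% of all genes hold. Capitals mark that match, TCACCCCAC, and a CCAAT box on the opposite strand.
SREBF2: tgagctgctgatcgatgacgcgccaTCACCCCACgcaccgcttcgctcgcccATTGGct

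SCAP, the escort of the SREBPs, had signals of 639 and 850 in BOKU siIGF2R, against 590 and 815 in BOKU siCtrl. In SKG-I it had 723 and 652 with siIGF2R and 840 and 885 with siCtrl. The BOKU arrays overlapped and the SKG-I arrays lay apart by less than those of the other machinery genes (changes of 0.09 and -0.33, limma adjusted p = 0.766).

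None of the 5 measured fatty acid enzymes was called. FASN, the fatty acid synthase, had signals of 580 and 450 in BOKU siIGF2R, against 325 and 314 in BOKU siCtrl. Its signals in SKG-I were 1029 and 941 with siIGF2R and 1658 and 1434 with siCtrl. The level was 1.60 times higher in BOKU and 1.57 times lower in SKG-I after knockdown, and the groups did not overlap in either line. Over both lines the changes cancelled (0.01 ± 0.35, SE, n = 2 lines, limma adjusted p = 0.986). ACLY, which supplies cytosolic acetyl-CoA, changed by 0.10 in BOKU and 0.29 in SKG-I, and ACACA, which makes malonyl-CoA, by 0.01 in BOKU and -0.38 in SKG-I (limma adjusted p = 0.394 and 0.597). Further probe sets of ACLY had changes of 0.53 and 0.56 in BOKU and 0.49 and 0.30 in SKG-I, and did not pass (limma adjusted p = 0.145 and 0.230). SCD, the stearoyl-CoA desaturase, changed by -0.10 in BOKU and by -0.82 in SKG-I (limma adjusted p = 0.199), and its 3 further probe sets had SKG-I changes of -0.96, -1.05 and -1.12.

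ELOVL6, the elongase of palmitate, had signals of 729 and 648 in BOKU siIGF2R, against 629 and 582 in BOKU siCtrl. The SKG-I signals were 59 and 54 with siIGF2R and 2 and 1 with siCtrl. These SKG-I signals lie under the median of all probe sets on an array, 65.3 to 74.8, so the SKG-I change of 5.16 on the log2 scale measures differences among very dim signals. The files hold no detection call. The change did not pass (limma adjusted p = 0.260), and it was 0.09 over both lines with signals under 100 set to 100.

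STARD4, a cytosolic carrier that moves sterols between membranes, had signals of 3033 and 3064 in BOKU siIGF2R, against 2155 and 2120 in BOKU siCtrl. On the SKG-I arrays it had 3288 and 3277 with siIGF2R and 1086 and 1002 with siCtrl. The groups did not overlap in either line, and the level was 1.43 times higher in BOKU and 3.15 times higher in SKG-I. The change over both was 1.08 ± 0.30 (SE, n = 2 lines, limma adjusted p = 0.0937), and without the first BOKU siCtrl array the adjusted p was 0.0420. Without that array 5.75% of all genes were called higher, against 2.63% with all arrays.

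ABCA1, the exporter that loads cellular cholesterol onto apolipoproteins, had signals of 3726 and 3300 in BOKU siIGF2R, against 4999 and 5246 in BOKU siCtrl. On the SKG-I arrays it had 1907 and 1897 with siIGF2R and 6609 and 6011 with siCtrl. The siIGF2R arrays were lower in both lines without overlap, 1.46 times in BOKU and 3.31 times in SKG-I. The change over both was -1.14 ± 0.29 (SE, n = 2 lines, limma adjusted p = 0.0839), and without the first BOKU siCtrl array the adjusted p was 0.0310. Without that array 5.17% of all genes were called lower, against 2.37% with all arrays. A second probe set of ABCA1 had changes of -0.52 in BOKU and -1.98 in SKG-I.

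Across the 27 members, the siIGF2R arrays lay below the siCtrl arrays in both lines for 10 (37%), ABCA1, ACAT2, HMGCS1, HSD17B7, INSIG1, INSIG2, LSS, SC5D, SCD and SREBF1, where 25.2% of all genes did. They lay above in both lines for 5 (18.5%), DHCR7, ELOVL6, FDPS, MSMO1 and STARD4, where 26.4% of all genes did. ELOVL6 is among these through the dim SKG-I signals given above. The members' median change in BOKU was -0.03, against 0.03 for all genes measured. In SKG-I it was -0.33, against -0.03 for all genes, and 20 of 27 members (74.1%) had a change below 0, against 51.9% of all genes. In BOKU 14 of 27 (51.9%) did, against 48.1% of all genes. SREBF2, which the filter favoured in SKG-I, is among the 20. Scaling each array to its median in place of the trimmed mean moved the median of all genes to -0.08 in BOKU and -0.13 in SKG-I and that of the members in SKG-I to -0.43.

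Of the members, 4 dropped at least 2-fold in SKG-I (ABCA1, HMGCS1, INSIG1 and SREBF1, 14.8%, where 6.42% of all genes did) and ELOVL6 and STARD4 gained at least 2-fold there (7.41%, where 8.28% of all genes did). In BOKU, HMGCS1 and INSIG1 dropped at least 2-fold (7.41%, where 5.06% of all genes did) and 0 members gained 2-fold, where 8.02% of all genes did. The changes of the lines were at least 2-fold apart for 5 members (18.5%), ABCA1, ELOVL6, FASN, SREBF1 and STARD4, where 11.6% of all genes were. ELOVL6 is in this count and among the SKG-I gains only through the dim SKG-I signals given above. On the log2 scale, the BOKU change minus the SKG-I change was 1.18 for ABCA1, 1.01 for SREBF1, 1.32 for FASN and -1.14 for STARD4. With 1 RNA sample per line and siRNA, these differences between the lines were not tested.

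**Figure D3:**
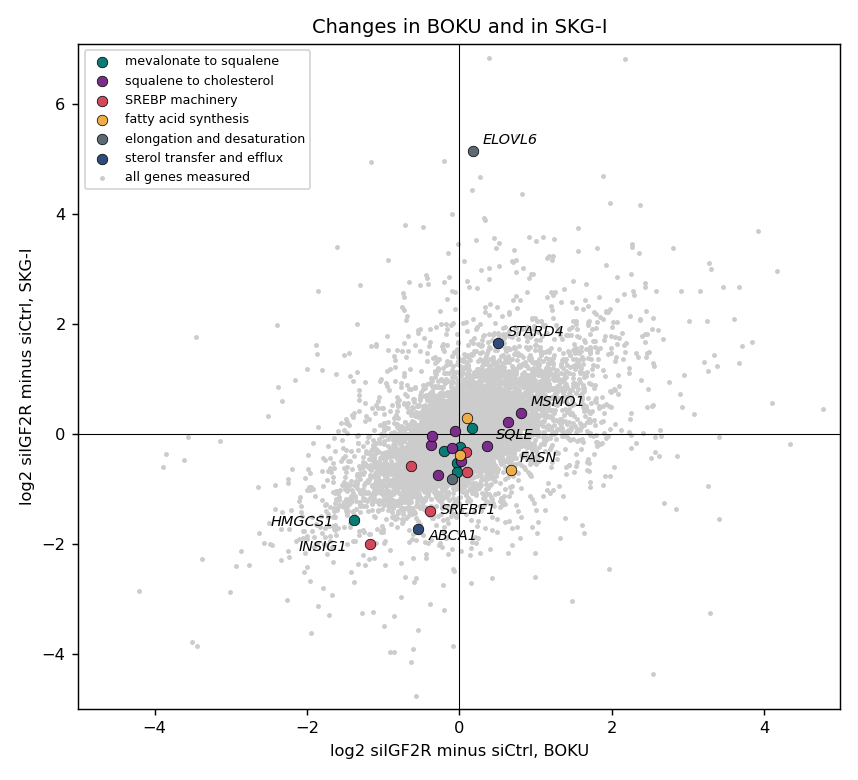
Change after IGF2R knockdown (log2 siIGF2R minus siCtrl) in BOKU (x axis) and SKG-I (y axis) for the 27 members, coloured by role, and for all 8961 genes measured (grey). HMGCS1 and INSIG1 lie low on both axes, ABCA1, SREBF1 and STARD4 are displaced more along the SKG-I axis, and FASN and SQLE lie to the right of 0 and below it.

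Over both siRNAs, 10 of the 27 members (37%) were lower in BOKU than in SKG-I, where 24.2% of all genes were, and ELOVL6 and INSIG2 (7.41%) were higher in BOKU, where 22% of all genes were. Each line had 2 RNA samples in this test, 1 per siRNA. TM7SF2, INSIG2 and ELOVL6 reached 500 only in the line where they were higher, and FASN reached it on 1 BOKU array, so their calls were favoured by the filter. With 500 required on all 8 arrays, 8 of 22 members were lower in BOKU, where 19.4% of 5632 genes were, and PMVK alone was higher, where 20% were. Of the 9 measured genes between squalene and cholesterol, 7 were lower in BOKU (TM7SF2, LSS, SQLE, EBP, SC5D, DHCR7 and MSMO1), with differences of -0.72 to -2.78 on the log2 scale. IDI1, FDPS and FASN were the others lower in BOKU.

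The 3 largest differences on this side belonged to TM7SF2, LSS and IDI1. TM7SF2's BOKU signals were 64 and 97 with siIGF2R and 69 and 89 with siCtrl, close to an array's median signal, against 507 and 409 with siIGF2R and 697 and 585 with siCtrl in SKG-I. BOKU minus SKG-I was -2.78 as measured, -2.43 with signals under 100 set to 100 and -2.08 with 64 added to each signal, and it is given as a description. LSS had 886 and 1041 with siIGF2R and 1115 and 1223 with siCtrl in BOKU, against 3635 and 3772 with siIGF2R and 6274 and 6203 with siCtrl in SKG-I. No BOKU array reached the lowest SKG-I array, and the level was 4.54 times lower in BOKU (log2 -2.18 ± 0.21, SE, limma adjusted p = 0.00141). IDI1 had 1678 to 2098 on the 4 BOKU arrays, against 5371 to 7160 on the 4 SKG-I arrays (log2 -1.73 ± 0.17, SE, limma adjusted p = 0.00173). Its other probe set had a difference of -1.54.

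In the other direction, ELOVL6 was higher in BOKU by 6.09 on the log2 scale, a size that rests on the dim SKG-I signals given above, and by 2.69 with signals under 100 set to 100. INSIG2 had 810 to 1261 on the 4 BOKU arrays, against 232 to 380 on the 4 SKG-I arrays. The groups did not overlap, and the level was 3.33 times higher in BOKU. For both genes the difference is a description, since only the BOKU arrays carried them past the filter. PMVK came next, at 1408 to 1693 on the BOKU arrays, against 742 to 1259 on the SKG-I arrays, and did not pass (log2 0.71 ± 0.24, SE, limma adjusted p = 0.0556), though it did with 500 required on all 8 arrays (0.0429).

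HMGCS1 and INSIG1 did not pass the test between the lines. HMGCS1 was 0.54 ± 0.20 higher in BOKU on the log2 scale (SE, limma adjusted p = 0.0716) and the difference for INSIG1 was far smaller than its SE of 0.24 (limma adjusted p = 0.998). With control siRNA alone, BOKU minus SKG-I was 0.45 for HMGCS1 and -0.42 for INSIG1. For SREBF1 and FASN the differences with control siRNA alone were -1.25 and -2.27.

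**Figure D4:**
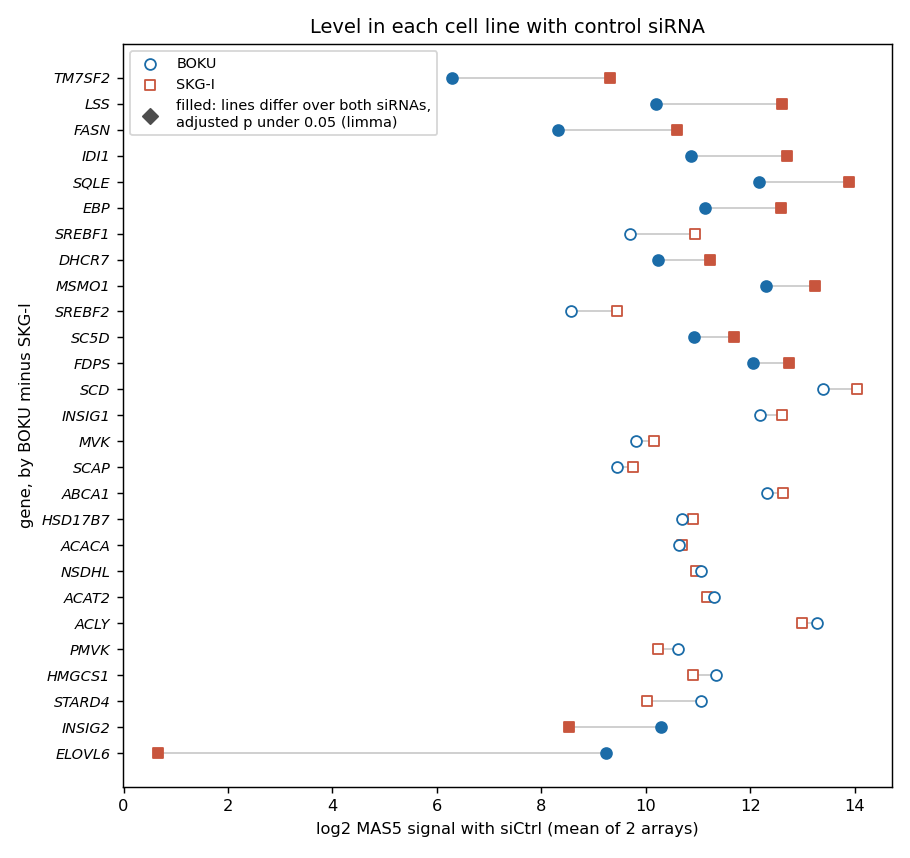
Level of each measured member with control siRNA, as log2 MAS5 signal (mean of 2 arrays), in BOKU (circles) and SKG-I (squares), ordered by BOKU minus SKG-I; filled symbols mark members whose lines differed over both siRNAs (limma adjusted p under 0.05), of which TM7SF2, INSIG2 and ELOVL6 reached 500 in 1 line only. TM7SF2, LSS, FASN, IDI1 and SQLE sit lowest in BOKU relative to SKG-I, and INSIG2 and ELOVL6 sit highest; signals of different genes cannot be compared along the axis.

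Of 82 further genes of sterol, fatty acid and phospholipid metabolism listed beside the members, 50 were measured. Their median change was 0.05 in BOKU and -0.16 in SKG-I, and ELOVL7 alone was called. ELOVL7, an elongase of very long chain fatty acids, had signals of 710 and 757 in BOKU siIGF2R, against 151 and 155 in BOKU siCtrl. The SKG-I arrays gave 349 and 323 with siIGF2R and 24 and 38 with siCtrl. The groups did not overlap in either line, but ELOVL7 reached 500 on the BOKU siIGF2R arrays alone, where it was highest, so its call (limma adjusted p = 0.0416) is a description. With signals under 100 set to 100 the adjusted p was 0.0555, and without the second BOKU siCtrl array it was 0.0518. None of the 50 was called lower, and 7 were lower and 7 higher at p under 0.05 before adjustment, about the share of all genes given above.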

How the data were processed

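GeneChip U133 Plus 2.0 arrays were scanned and summarised by the authors with MAS5, and the deposited table holds one linear signal intensity per probe set and array. Each array's mean after trimming 2% at both ends was 500 in the files, which is not the mean the methods state. The deposited values were used without further scaling.

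A probe set was kept where it reached 500 on at least 1 of 8 arrays (16517 of 54675, with 62 control probe sets left out), after the low-signal filter of the methods. A gene was represented by its brightest probe set annotated with that gene alone (14544 of the kept probe sets, against 765 with several genes and 1208 with none). MAS5 signals depend on the probes, so levels were compared within a gene only. The log2 intensity was averaged over duplicate arrays. Over all kept probe sets the SD of the log2 difference between duplicates was 0.269 to 0.349, and over the members its median absolute size was 0.0604 to 0.175 and its largest 1.32 (ELOVL6, SKG-I siCtrl).

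The 4 RNA samples were fitted with limma 3.58.1 (R 4.3.3), with line and siRNA as terms and a variance trend, leaving 1 residual degree of freedom beside 4.82 from the prior. Tests were two-sided, with Benjamini-Hochberg adjustment over the 16517 probe sets and calls at 0.05. The study's own test was a t-test with a 2-fold minimum. Scripts were tested on simulated data. Alternatives were quantile and median scaling, a subtraction of the median change in 10 signal classes, a floor of 100, an added 64, other filters and probe set rules, no trend, a fold minimum of 1.5, arrays as separate samples, the methods' t-test and leaving out each array.

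The members, the other pathway genes and the marker lists were chosen with earlier results of these data known. Signals on every array were to be given for members called, 2-fold changed in a line, 2-fold different in change between the lines or in the SREBP machinery, and for the 3 largest differences between the lines each way; those of MSMO1 and SQLE were added after their values were seen. Other pathway genes were named where called or 2-fold changed in both lines. Of the lists fixed beside the members, the epithelial markers had 5 of 7 genes measured, the fibroblast markers 2 of 7, the leukocyte markers 0 of 6 and the endothelial markers 0 of 4. Promoter windows came from RefSeq (GRCh38.p14).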

Additional observations from a re-analysis of the deposited data

Results flagged for a closer look

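SQLE and FASN moved in opposite directions in the lines. For SQLE, both siIGF2R arrays lay above the siCtrl arrays in BOKU and below them in SKG-I, and the BOKU change minus the SKG-I change was 0.58 on the log2 scale. For FASN the arrays separated the same way, with a difference of 1.32. The difference was not tested for either gene, since each line and siRNA had 1 RNA sample. Of all genes measured, 13.3% met this description.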

How the results depend on the processing

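The calls for HMGCS1 and INSIG1 depended on the variance trend and on the test used, and that for HMGCS1 also on the probe set rule. Members called lower numbered 2, against 1 with all probe sets of a gene averaged, 0 without the variance trend, 1 with the methods' t-test on duplicate means and 0 after adjusting it, and 0 with that test within each line after adjustment. Arrays taken as separate samples gave 9 lower and 4 higher, with 24.8% of all genes lower and 25.8% higher. Array numbers mark repeat arrays of 1 RNA, not paired cultures, and with the replicate block added the counts were 9 lower and 3 higher (23.3% and 24.2% of all genes). Leaving out each array in turn gave 2 to 3 lower and 0 to 1 higher. Among all genes these settings called 1.64% to 5.17% lower and 1.6% to 5.75% higher. ABCA1 (limma adjusted p = 0.0310) and STARD4 (0.0420) passed without BOKU siCtrl array 1, the setting with the largest of these shares. Members 2-fold lower in both lines numbered 1 with the mean of probe sets. Between the lines, members higher in BOKU numbered 2, against 1 with 500 required on all 8 arrays. With separate arrays they numbered 6 and with the block 5. In that order 22%, 20%, 35.1% and 34.4% of the genes measured were called higher. Members lower in BOKU numbered 10, where 24.2% of all genes were. Without _s_at and _x_at probe sets 5 of 17 members were, where 25.5% of 6349 genes were. DHCR7, FASN, IDI1, SC5D and TM7SF2 had only such probe sets and were not measured there. Without the variance trend DHCR7, FDPS and MSMO1 were not called, and 18.6% of all genes were lower. The median change in SKG-I was -0.43 under median scaling.

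Some small changes over both lines turned their sign: SQLE at -0.0326 under median scaling; NSDHL at 0.00275 under quantile normalization, 0.00955 with signal classes and -0.0781 to 0.0745 without single arrays; SREBF2 at 0.29 without _s_at and _x_at probe sets and -0.381 to 0.194 without single arrays; FASN at -0.0740 (quantile), -0.0897 (median), -0.0157 (64 added), -0.0326 (classes) and -0.0780 to 0.106 without single arrays. ELOVL7 lost its call under quantile normalization (adjusted p = 0.0516), a floor of 100 (0.0555), the mean of probe sets (0.0559), no trend (0.102) and without BOKU siCtrl array 2 (0.0518). The cause was not tested. Of 18 further probe sets of 12 members, 17 had the representative's sign in the change over both lines. Without counts or detection calls, the files give no depth, and signals near 1 have no usable ratio.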

Other observations

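Several other lipid genes, named after their values were seen, changed at least 2-fold in 1 line and not in the other. Of the 50 measured, 3 were 2-fold lower in SKG-I and 3 were 2-fold higher in BOKU, where 6.42% and 8.02% of all genes were. Further, 2 were 2-fold higher in SKG-I and 0 were 2-fold lower in BOKU, where 8.28% and 5.06% of all genes were. ELOVL7 is in both counts of higher genes. ACSS2, which makes acetyl-CoA from acetate, had signals of 879 and 635 in BOKU siIGF2R, against 263 and 251 in BOKU siCtrl, and 1230 and 1528 in SKG-I siIGF2R, against 1988 and 1893 in SKG-I siCtrl. Its arrays lay above the controls in BOKU and below them in SKG-I, as those of SQLE and FASN did. SCARB1, the receptor for high density lipoprotein, had 1099 and 1169 in BOKU siIGF2R, against 467 and 565 in BOKU siCtrl, while in SKG-I the siIGF2R arrays had 1637 and 1583, against 1808 and 1661 with siCtrl. ACAT1, the mitochondrial thiolase, had 4047 and 4469 in SKG-I siIGF2R, against 11581 and 12965 in SKG-I siCtrl, and its BOKU change was -0.35 on the log2 scale.

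SOAT1, which esterifies cholesterol, had a BOKU change of 0.08 on the log2 scale and 882 and 1297 in SKG-I siIGF2R, against 2477 and 2149 in SKG-I siCtrl. NCEH1, which hydrolyses cholesterol esters, had a BOKU change of 0.36 and 6069 and 6008 in SKG-I siIGF2R, against 2385 and 1988 in SKG-I siCtrl. LPIN1, listed with glycerolipid and phospholipid synthesis, had a BOKU change of -0.63 and 721 and 647 in SKG-I siIGF2R, against 1496 and 1570 in SKG-I siCtrl. None of the genes named here for a change in 1 line passed the test over both lines.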
